A study of Mus musculus with 2 samples.

Results

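Regulatory T cells (Tregs) of mouse B16-F10 melanomas were described from single-cell RNA-seq of sorted tumour leukocytes. Transcripts were counted as unique molecular identifiers (UMIs), 1 per captured molecule. A barcode was taken as a Treg where 300 or more genes were detected, mitochondrial UMIs were 10% or less, Cd3e and Foxp3 each had at least 1 UMI, and Cd8b1, Csf1r and Cd79a had 0. The rule found 518 Tregs, which were 2.30% of the 22490 barcodes kept in all 8 samples and 7.36% of the 7041 T cells. The cells were thus chosen by the measured UMIs of Foxp3, Cd3e, Cd8b1, Csf1r and Cd79a, whose levels are a description only and were not tested.

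Tregs are CD4 T cells that restrain other immune cells, and the transcription factor FOXP3 holds their programme in place. They take up IL-2 through the high-affinity receptor chain CD25 (Il2ra), blunt co-stimulation through CTLA-4, and release or activate suppressive cytokines such as IL-10, IL-35 and TGF-β. In tumours they are known for high levels of the TNF receptor family members OX40, GITR and 4-1BB and for limiting CD8 T cell responses.

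The series addressed the loss of Trex1, the cytosolic DNA exonuclease that keeps self DNA from activating the cGAS-STING pathway, in grown mice. The iKO samples came from Trex1 fl/fl R26CreERT2 mice and control samples from Trex1 wt/fl R26CreERT2 mice, which can lose 1 Trex1 allele, with 4 samples in each group. Both genotypes carried R26CreERT2 as ki/wt, so the tamoxifen-dependent Cre is driven from the ubiquitous Rosa26 locus and is not restricted to Tregs. All were male mice of 8 to 12 weeks, all carried tumours from 1000 B16-F10 cells, and both genotypes received 1 mg tamoxifen on 3 consecutive days from day 5, with harvest on day 14. The leukocytes were enriched with CD45 beads, sorted as live CD45+ cells and marked with hashtag antibodies. All 4 iKO samples were run in 1 pool and all 4 control samples in another, and an effect of the pool and an effect of genotype cannot be told apart. The labels do not say whether a hashtagged sample is a single mouse, and the p-values measure only the spread between these samples.

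Tregs numbered 84, 121, 49 and 49 in iKO 1 to 4 and 47, 55, 94 and 19 in control 1 to 4. Their summed profiles held 277985 to 1203839 UMIs a sample, and the median Treg held 8047 UMIs. Median mitochondrial shares were 0.951 to 1.33% in the iKO and 1.55 to 1.72% in the control samples. No Treg barcode was among the 45 barcodes that both pools contained, and 2 Tregs had a Scrublet doublet score above 0.25. Trex1 had 0 UMIs in the Tregs of all 8 samples, which allows up to 0.885 CPM (UMI count per 1000000 UMIs of the summed Tregs) in the iKO and 1.28 CPM in the control Tregs, so it gave no check of the genotype in these cells. Atrip, the gene beside Trex1, was at 12.4, 9.97, 19.5 and 18.4 CPM in the iKO and 7.39, 10.2, 10.3 and 3.6 CPM in the control Tregs, under the filter on low counts and not tested. Intervals and limits from counts cover counting error only.

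The label was checked against markers that the rule did not use. Il2ra had a UMI in 68.1% of Tregs, Ikzf2 (the transcription factor Helios) in 95.9%, Tnfrsf18 (GITR) in 96.1% and Tnfrsf4 (OX40) in 93.8%. In conventional CD4 T cells, taken as Cd3e- and Cd4-positive barcodes without Foxp3, Cd8b1, Csf1r or Cd79a, these shares were 16.5%, 30.1%, 68.3% and 52.9%, at a median depth of 5837 UMIs. In Csf1r-positive, Cd3e-negative myeloid cells, which should lack these genes, the shares were 2.75%, 6.39%, 11.3% and 7.30% at a median of 14627 UMIs. All 4 shares in Tregs lay far above those in myeloid cells, which were taken as the background of free RNA. Cd4 had a UMI in 74.9% of Tregs and Cd8a in 9.27%.

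Foxp3 itself was sparse, as is usual for a transcription factor in droplet data. A single Foxp3 UMI placed 101 of the 518 Tregs, 2 UMIs placed 103, and 314 held 3 or more. Cells with exactly 1 UMI made up 10.2 to 14.3% of Tregs in the iKO and 19.1 to 38.3% in the control samples. Myeloid cells had a Foxp3 UMI in 1.15% (101 of 8779) and Cd79a-positive cells in 1.73% (15 of 866). Foxp3 stood at 331, 424, 345 and 287 CPM in Tregs of iKO 1 to 4 and at 325, 271, 345 and 198 CPM in those of control 1 to 4.

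Just outside the rule lay 257 Foxp3-positive T cells that failed only for a Cd8b1 UMI. Of these, 68.9% had an Il2ra UMI and 89.1% an Ikzf2 UMI, shares close to those of the Tregs, at a median depth of 12497 UMIs. Of Foxp3-positive T cells, 42.9, 40.7, 23.4 and 31.9% held a Cd8b1 UMI in iKO 1 to 4. In control 1 to 4 these shares were 25.4, 20.3, 27.1 and 29.6%. The rule thus left out a larger part of these cells in iKO 1 and iKO 2 than in any other sample. Another 82 cells failed only for Csf1r, 19 only for Cd79a and 94 only for Cd3e. The 1617 T cells that failed only for Foxp3 had an Il2ra UMI in 12.9% and an Ikzf2 UMI in 39.0%.

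Treg abundance varied more between samples of 1 genotype than between genotypes. Tregs were 6.0, 4.55, 15.7 and 10.4% of T cells in iKO 1 to 4 and 6.59, 10.8, 14.7 and 5.62% in control 1 to 4. The 95% Wilson interval was 3.82 to 5.41% for iKO 2 and 12 to 20.1% for iKO 3, so these samples of 1 genotype differed beyond counting error. The means were 9.14 ± 4.99% and 9.44 ± 4.18% (SD, n = 4 each; exact permutation test, two-sided, p = 0.857). Among all kept leukocytes Tregs were 2.17, 2.05, 3.76 and 1.99% in the iKO and 2.37, 3.21, 3.40 and 0.758% in the control samples (exact permutation p = 0.886). With 4 samples against 4 the smallest p this test can give is 0.0286.

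CD8 T cells, taken as Cd3e- and Cd8b1-positive barcodes without Foxp3, Csf1r or Cd79a, numbered 13.1, 18.5, 3.02 and 5.00 per Treg in iKO 1 to 4 and 8.38, 3.56, 2.10 and 6.53 in control 1 to 4. The ranges overlapped, and the mean log2 ratios of 2.96 ± 1.21 and 2.17 ± 0.899 did not differ past the threshold (SD, n = 4 each; exact permutation p = 0.314). Adjusted over these 3 measures of abundance each p was 0.886 by the exact permutation test.

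**Figure D1:**
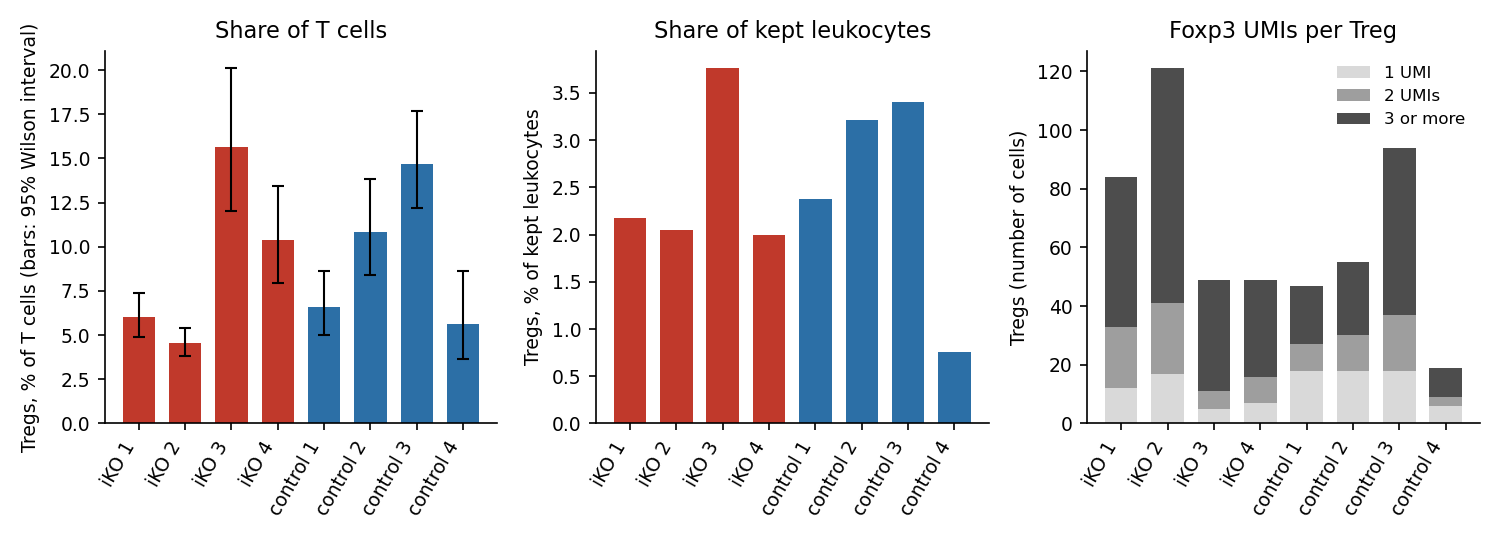
Treg abundance by sample: the share of T cells in percent with 95% Wilson intervals (left), the share of kept leukocytes in percent (middle), and the number of Tregs by their Foxp3 UMIs (right). The iKO samples are red and control samples blue in the first panels, and the shares of T cells overlap, with iKO samples spanning 4.55 to 15.7% and control samples 5.62 to 14.7%.

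Against conventional CD4 T cells of the same samples, Tregs had higher levels of receptors for IL-2 and TNF family ligands and of suppressive effectors, and lower levels of Cd40lg and of most tested genes of resting, recirculating T cells. The comparison summed UMIs per sample and class and kept the sample as a block (edgeR quasi-likelihood test, Benjamini-Hochberg adjusted p under 0.05). Of 6043 genes tested, 873 (14.4%) were higher and 781 (12.9%) lower in Tregs, with a median log2 fold change of 0.00 over all. Tregs were the deeper class, with a median of 8047 against 5837 UMIs a cell. With every cell thinned to 2000 UMIs, 560 of the 1742 genes then tested were called, 256 higher and 304 lower, and 459 calls were shared. In this and the other edgeR fits with thinned cells, the classes were still set by the full counts. After thinning, 54.3% of Tregs held a Foxp3 UMI. These fits therefore do not remove an effect of depth on which cells entered a class.

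Of the 22 Treg identity genes, 19 were tested; 12 were higher, 3 were lower and the median log2 difference was 1.26. Ikzf2 stood at 1526 ± 272 against 261 ± 130.2 CPM (mean ± SD over 8 samples; log2 difference 2.61 ± 0.22, SE; edgeR adjusted p = 2.51e-07), and Il2ra at 241 ± 29.6 against 46.1 ± 16.6 CPM (2.29 ± 0.16, edgeR adjusted p = 3.83e-08). Both lay higher in Tregs in 8 of 8 samples. Tnfrsf4 stood at 1404 ± 535 against 384 ± 117 CPM and Tnfrsf18 at 967 ± 289 against 386 ± 95.2 CPM, log2 differences of 1.79 and 1.26. Ikzf4 (Eos), a partner of FOXP3, differed by 1.97 and Izumo1r (folate receptor 4) by 1.45. The 3 lower members were Nrp1 (neuropilin-1) at -1.87, Rgs1, a regulator of G protein signalling, at -1.05, and Nt5e (CD73, which makes adenosine) at -0.67. Nrp1 was at 27.5 ± 14.3 against 94.7 ± 18.9 CPM.

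Suppressive effectors were mostly higher in Tregs: 11 of 14 tested were called higher and 1 lower, with a median log2 difference of 1.31. Il10 stood at 57.9 ± 43.2 against 8.55 ± 9.58 CPM (2.75 ± 0.34, edgeR adjusted p = 1.16e-05). Itgb8, the integrin chain that releases active TGF-β, differed by 2.94 ± 0.27. The inhibitory receptor Ctla4 was at 953 ± 199 against 253 ± 116 CPM and differed by 1.94. Granzyme B (Gzmb) was at 1058 ± 813 against 331 ± 319 CPM, with a log2 difference of 1.97, and the ectoenzyme CD39 (Entpd1) differed by 0.97. For Tgfb1, which most T cells transcribe, the difference of 0.06 did not pass (adjusted p = 0.739).

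Of the effector or tumour Treg genes 14 of 23 tested were higher and 2 lower. Tnfrsf9 (4-1BB) differed by 2.33, the tissue repair ligand Areg by 2.54, Klrg1 by 2.64 and the chemokine receptor Ccr2 by 0.94. The 2 lower members were Cxcr6 at -2.48 and the transcription factor Bhlhe40 at -1.25. The co-stimulatory receptor Icos did not pass, at 497 ± 199 against 398 ± 108 CPM (0.22 ± 0.12, edgeR adjusted p = 0.198).

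Ligand genes of helper T cells, named here without a list of their own, and most resting genes were lower in Tregs. The CD40 ligand gene Cd40lg stood at 5.23 ± 3.51 against 114 ± 20.0 CPM (-4.58 ± 0.25, edgeR adjusted p = 3.31e-09), and the ligand genes Tnfsf8 and Tnfsf11 differed by -4.44 and -2.69. Of 10 resting genes tested, 8 were lower and 0 higher, with a median of -1.59. Among them were the transcription factors Tcf7 at -3.54 and Klf2 at -2.78, the survival gene Bcl2 at -3.26, the egress receptor S1pr1 at -2.53 and the IL-7 receptor Il7r at -1.41. The other genes with the largest rises were Rapsn (2.93), the transcript Gm28112 (2.67), Snx9 (2.60), Neb (2.45) and Chchd10 (2.27), and those with the largest falls were St3gal6 (-3.95), Jaml (-3.49), Gm2682 (-3.01), Ehd3 (-2.98), Krt83 (-2.73) and Evl (-2.72).

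Tregs had higher levels of cell cycle genes than conventional CD4 T cells. Of 26 proliferation genes tested 25 were higher and 0 lower, with a median log2 difference of 1.33. Mki67 stood at 252 ± 85.0 against 72.1 ± 26 CPM and differed by 1.72 ± 0.23 (edgeR adjusted p = 3.19e-05). Glycolysis and hypoxia genes were higher for 13 of 21 tested and lower for 0. Of the type I interferon response genes 6 of 47 were higher and 14 lower, with a median of -0.19.

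The comparison with CD8 T cells of the same samples set the Treg programme against the cytotoxic one. Of 8195 genes tested 1048 (12.8%) were higher and 937 (11.4%) lower in Tregs (edgeR quasi-likelihood test with the sample as a block, adjusted p under 0.05). CD8 T cells were the deeper class here, with a median of 13989 UMIs. Thinned to 2000 UMIs a cell, 895 of 3330 genes were called, 486 higher and 409 lower, and 749 calls were shared. Treg identity genes were higher for 16 of 20 tested and lower for 1, with a median log2 difference of 2.13. Lrrc32 (GARP), which docks latent TGF-β on the Treg surface, was at 29.9 ± 13.5 against 0.318 ± 0.395 CPM (7.11 ± 0.41, edgeR adjusted p = 3.09e-08). Itgb8 differed by 4.85, the IL-35 chain Ebi3 by 4.61, Izumo1r by 4.35, the tissue integrin Itgae (CD103) by 4.16, the transcription factor Maf by 3.85 and the chemokine receptor Ccr8 by 3.82. Icos, which did not separate Tregs from conventional CD4 T cells, was at 497 ± 199 against 88.1 ± 24.5 CPM here (2.35 ± 0.14, edgeR adjusted p = 3.25e-08). The other large rises were those of F830016B08Rik (5.00), Cd81 (3.73), Rapsn (3.69), Klrg1 (3.57), Ramp1 (3.42) and Areg (3.33).

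Cytotoxic genes divided. Perforin (Prf1), the pore former, was at 74.7 ± 38.6 against 445 ± 339.8 CPM (-2.57 ± 0.17, edgeR adjusted p = 5.11e-08), and Gzmk (-4.84), Xcl1 (-4.98), Fasl (-3.18) and Cd160 (-5.05) were lower in Tregs as well. Gzmb stood at 1058 ± 813 against 1059 ± 916 CPM and did not pass (-0.11 ± 0.16, edgeR adjusted p = 0.67). Further large falls were Cd8a (-5.97), Trgv2 (-5.34), Dapl1 (-5.21), Wdr95 (-4.83), Trgc2 (-4.73), Crtam (-4.71), Gm44175 (-4.68), Nrgn (-4.61) and Gldc (-4.50). Of 16 Th1-like genes 5 were higher and 9 lower. Proliferation genes were called higher for 0 and lower for 4 of 28, and Mki67 was at 252 ± 85.0 against 231 ± 66.7 CPM (adjusted p = 0.983). Type I interferon response genes were higher in Tregs for 28 of 50 and lower for 2, with a median of 0.59.

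**Figure D2:**
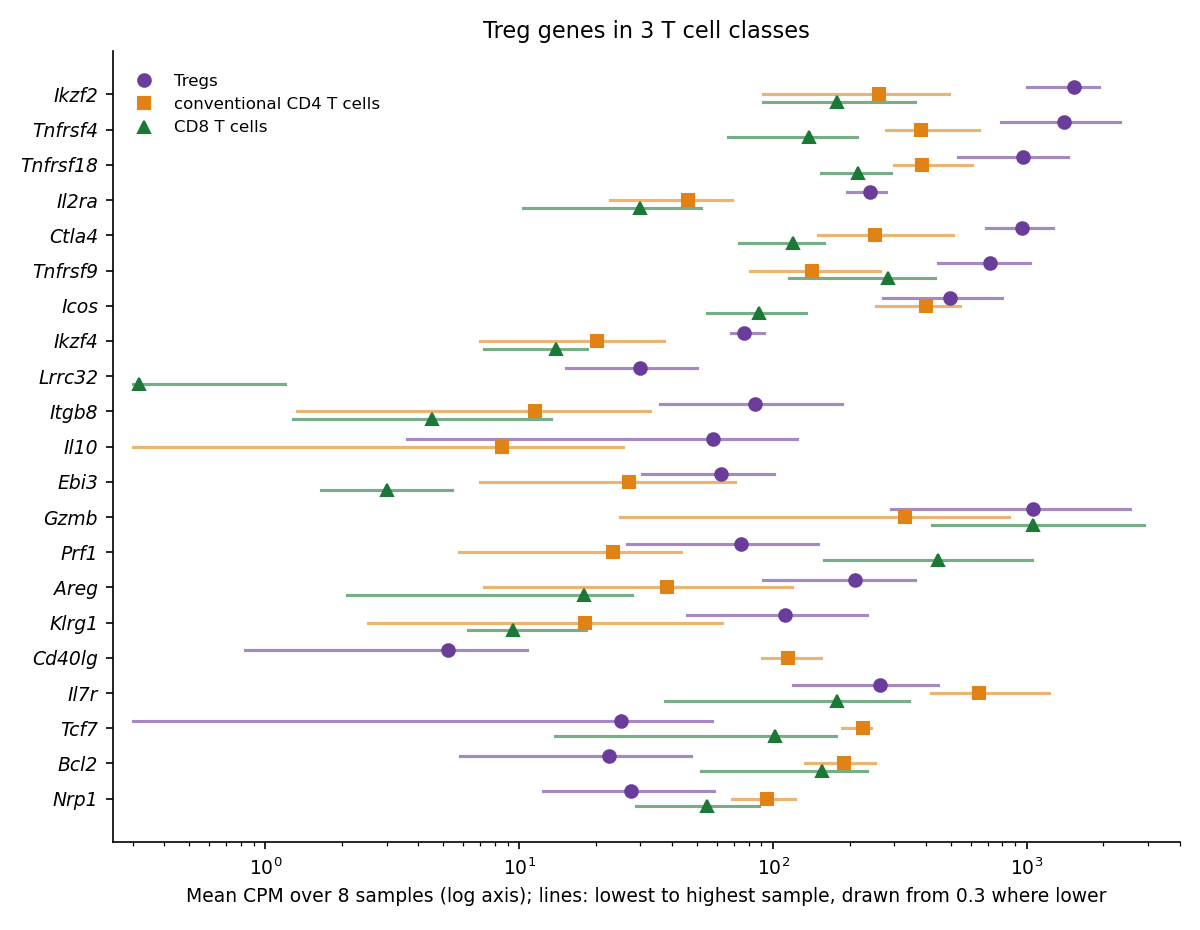
Mean CPM (log axis) of 21 Treg, effector and resting genes in Tregs, conventional CD4 T cells and CD8 T cells over 8 samples, with lines from the lowest to the highest sample. Il2ra in Tregs (195 to 278 CPM) lies above its range in both other classes, whereas the Gzmb ranges of Tregs and CD8 T cells overlap; a gene filtered out of a comparison has no symbol for that class.

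Between genotypes, Tregs of the iKO samples had higher levels of type I interferon response genes and of granzyme B, and lower levels of Il7r and of transcripts typical of myeloid cells. The control 4 profile summed only 19 Tregs and fell under the minimum of 20 cells, so the fit compared 4 iKO with 3 control profiles. Of 6740 genes tested, 25 (0.371%) were higher and 37 (0.549%) lower in iKO Tregs (edgeR quasi-likelihood test, adjusted p under 0.05), together 0.92%, and the median log2 fold change over all genes was -0.01. With control 4 admitted, 49 of 6352 genes (0.771%) were higher and 72 (1.13%) lower, together 1.9%, and 47 of the 62 calls were shared. The count of calls rested on single libraries: it was 5 without iKO 1 or without control 2, 114 without iKO 4 and 140 without control 1. None of the 25 genes called higher passed without iKO 1 or without control 2, and 18 genes were called when at least 2 Foxp3 UMIs were required. Beside these differences, the mitochondrial shares and the shares of Tregs with a single Foxp3 UMI given above also differed between the groups, and their part in the results was not tested.

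All 52 tested members of the type I interferon response list (56 genes listed) had a log2 fold change above 0, with a median of 1.41. Of these 13 were called higher, and the sample values of 20 lay wholly above those of control 1 to 3, as did those of 7.28% of all genes tested. The list and the pattern were known from earlier results of these data, so the counts are no independent evidence. Without iKO 1, without control 2 or without control 3 no member was called (36 to 39 were at an unadjusted edgeR p under 0.05), and without iKO 4 or without control 1 the calls rose to 32 and 33. With at least 2 Foxp3 UMIs required, 1 of 49 members was called and 38 had an unadjusted edgeR p under 0.05. For this and the other genotype lists, counts at an unadjusted p lack the share over all genes tested and are a description only. The list median stayed between 1.13 and 1.80 in the 7 fits that left out 1 profile.

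Oasl1, an oligoadenylate synthetase-like antiviral gene, was at 24.7, 27.4, 21.2 and 9.20 CPM in Tregs of iKO 1 to 4 and had 0 UMIs in all 4 control samples. Against the limit of 3 counts over the control Tregs it was at least 17.3-fold higher (edgeR adjusted p = 0.0197). Ifit3, a member of the antiviral IFIT complex, was at 177, 155, 142 and 18.4 CPM in the iKO and at 12.3, 5.08, 0 and 7.19 CPM in the control samples (4.85 ± 0.87, adjusted p = 0.0299). For Rsad2 (viperin) the levels were 72.1, 69.8, 77.9 and 15.3 CPM and 4.93, 3.39, 4.68 and 3.6 CPM (3.66 ± 0.59, adjusted p = 0.0197). In each of these genes iKO 4 was the lowest iKO sample and still lay above every control sample.

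Irf7, the transcription factor that amplifies interferon production, stood at 240.1, 248, 159 and 64.4 CPM in the iKO and at 64.1, 16.9, 21.5 and 18.0 CPM in the control samples (2.50 ± 0.49, edgeR adjusted p = 0.0386). Here iKO 4 and control 1 nearly met. Oas1a, a sensor of double-stranded RNA, was at 77.3, 73.9, 77.9 and 35.3 and 19.7, 10.2, 7.49 and 14.4 CPM (2.52 ± 0.38, adjusted p = 0.0164). The largest other rises were those of Ifi44 (4.45), Ifi213 (3.03), Ifi214 (2.71), BC147527 (2.70), Ifi211 (2.60), Oas3 (2.59) and Ifit1bl1 (2.58). Isg15, the ubiquitin-like modifier, was at 899, 783, 678 and 184 CPM in the iKO and at 281, 39.0, 60.8 and 101 CPM in the control samples. Its fold change of 2.38 ± 0.62 did not pass (edgeR adjusted p = 0.0955) and did with 8 profiles (adjusted p = 0.0406). Several of these genes have close paralogs (Ifit3 and Ifit3b, the Oas1 and Ifi200 families), and how shared reads were assigned is not given in the sources used here.

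Upstream sequences of 5 of the called genes are shown because they hold a match to the core of the interferon-stimulated response element, the site bound by the ISGF3 and IRF factors. Capitals mark every match to the motif of GAAA, any 2 bases and GAAA again, searched on both strands, so that a match on the other strand reads TTTC, any 2 bases and TTTC. Each run is the 250 bases before the annotated start, 5′ to 3′ on the gene's strand, from RefSeq on GRCm38.p6; the count data were mapped to GRCm39, and no coordinates were carried between the builds.
Ifit3, chr19:34583279-34583528, + strand: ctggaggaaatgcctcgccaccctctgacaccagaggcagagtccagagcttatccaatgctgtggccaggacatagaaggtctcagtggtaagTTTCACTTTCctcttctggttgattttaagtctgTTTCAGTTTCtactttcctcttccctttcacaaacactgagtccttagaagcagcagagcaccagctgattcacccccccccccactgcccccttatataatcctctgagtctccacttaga
Rsad2, chr12:26456453-26456702, - strand: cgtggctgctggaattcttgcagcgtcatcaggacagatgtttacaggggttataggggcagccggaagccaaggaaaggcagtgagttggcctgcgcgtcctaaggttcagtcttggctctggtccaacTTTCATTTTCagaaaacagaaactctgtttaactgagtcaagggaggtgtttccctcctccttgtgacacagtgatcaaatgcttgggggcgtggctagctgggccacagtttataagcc
Oas1a, chr5:120907526-120907775, - strand: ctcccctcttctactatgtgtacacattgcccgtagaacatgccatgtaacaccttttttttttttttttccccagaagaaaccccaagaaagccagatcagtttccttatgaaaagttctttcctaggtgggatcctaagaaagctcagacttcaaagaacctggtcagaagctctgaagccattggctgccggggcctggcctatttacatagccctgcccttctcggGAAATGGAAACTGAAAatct
Oas3, chr5:120777660-120777909, - strand: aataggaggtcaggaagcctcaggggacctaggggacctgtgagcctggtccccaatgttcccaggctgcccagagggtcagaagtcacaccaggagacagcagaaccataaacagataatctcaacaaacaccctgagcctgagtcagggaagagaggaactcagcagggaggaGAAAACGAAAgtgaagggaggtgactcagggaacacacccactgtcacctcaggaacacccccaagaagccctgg
Ifi213, chr1:173599273-173599522, - strand: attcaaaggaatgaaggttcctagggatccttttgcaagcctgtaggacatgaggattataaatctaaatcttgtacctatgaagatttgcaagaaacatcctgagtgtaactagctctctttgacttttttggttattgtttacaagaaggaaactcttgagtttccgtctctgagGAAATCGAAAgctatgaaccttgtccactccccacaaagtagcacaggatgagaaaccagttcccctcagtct

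The Ifit3 window held 2 matches, which began 156 and 122 bases before the start, and the Oas1a window held 2 overlapping ones at 20 and 14 bases. In Rsad2, Oas3 and Ifi213 a single match began 120, 75 and 73 bases before the start. Among the 25 genes called higher, 23 had a promoter in the table, and 10 of these (43.5%) held a match. These 10 included Ifi208, Ifi211, Ifi213 and Ifi214, which are paralogs of the Ifi200 family on chromosome 1. The Ifi208 and Ifi213 windows shared long runs of the same bases. The 10 matches are thus not independent, and the percentage counts related promoters as separate genes. The motif occurred in 821 of all 27025 promoters (3.04%), in 171 of the 5447 matched genes tested (3.14%) and in 1 of the 29 matched genes called lower (3.45%). Gzmb, Ms4a4b, Irf7, Oasl1 and Ifi44 had no match to these letters in the window. A match describes the sequence and no binding was measured.

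Myeloid cells also held these transcripts: Isg15 was at 874 to 2833 CPM in the Csf1r-positive cells of iKO samples and at 209.8 to 473 CPM in those of control samples. Lyz2, a myeloid gene, stood in Tregs at 1.03 to 1.65% of its level in the Csf1r-positive cells of the same sample in the iKO and at 1.64 to 3.29% in the control samples. Other myeloid genes reached higher percentages: S100a9 stood at 2.47 to 14.5% in the iKO and 3.92 to 17.3% in the control samples, and Pf4 at 0.987 to 23.1% and 1.40 to 9.87%. Isg15 in Tregs stood at 20.9 to 77.6% of the myeloid level in the iKO and at 13.6 to 59.4% in the control samples, and Rsad2 at 8.73 to 44.7% and 2.44 to 9.48%. Oasl1 in iKO Tregs stood at 12.6 to 34.0% of the myeloid level. In iKO 1, S100a9 (14.5%) and Pf4 (23.1%) lay above Rsad2 and Oasl1, and in control 2 S100a9 (17.3%) lay above Isg15 (13.6%). How much of the interferon transcripts in Tregs was free RNA was not tested. Leaving out Tregs with over 0.05% of UMIs from 6 myeloid genes, 12 of 51 interferon genes were called and all 51 had a fold change above 0. This filter removed a much larger part of the control than of the iKO Tregs.

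Interferon gamma response genes gave no calls. Of 27 tested 25 had a fold change above 0, with a median of 0.47, and 0 were called in either direction (16 above and 2 below 0 at an unadjusted edgeR p under 0.05). The unadjusted counts are again given without the share over all genes tested. Gbp2, a guanylate-binding protein, was at 83.5, 88.9, 92.1 and 85.9 CPM in the iKO and 83.8, 37.3, 30.9 and 71.9 CPM in the control samples (adjusted p = 0.217). The receptor chains Ifnar1 and Ifngr1 had fold changes of 0.14 and -0.32 on the log2 scale, neither past the threshold. Of 15 nucleic acid sensing and interferon signalling genes tested 0 were called, with a median of 0.14 (4 above and 0 below 0 at an unadjusted edgeR p under 0.05).

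Among 15 suppressive effector genes tested, 2 rose and 0 fell, and the list median was 0.32. Gzmb stood at 1839, 2556, 1436 and 894 CPM in Tregs of iKO 1 to 4 and at 596, 291, 441 and 410.1 CPM in those of control 1 to 4, a 3.63-fold difference (1.86 ± 0.32, edgeR adjusted p = 0.0241). The groups did not overlap, and leaving out 1 profile gave adjusted p values of 0.00282 to 0.12. It did not pass without iKO 1, without control 2 or without control 3, or with at least 2 Foxp3 UMIs required (log2 fold change 1.59, adjusted p = 0.0593). Lgals1 (galectin-1) was at 3258, 2949.7, 2735 and 3122 CPM in the iKO and 1976, 1773, 2120.0 and 2651 CPM in the control samples (0.55 ± 0.11, adjusted p = 0.039). With 8 profiles Lgals1 did not pass (edgeR adjusted p = 0.158). Ebi3 at 0.89 and Entpd1 at 1.02 on the log2 scale did not pass (adjusted p = 0.0968 and 0.102). Il10 was at 124, 109, 28.3 and 49.1 and 83.8, 20.3, 45.9 and 3.6 CPM, Prf1 at 150.5, 96.4, 26.6 and 44.5 and 91.2, 62.7, 50.5 and 75.5 CPM and Tgfb1 at 169, 157, 184 and 193 and 140.4, 124, 170.3 and 187 CPM, all overlapping between the groups.

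The identity genes did not separate the genotypes: 0 of 20 tested were called, with a median log2 fold change of 0.25 (2 above and 1 below 0 at an unadjusted edgeR p under 0.05). Ikzf2 was at 1603, 1927, 1682 and 1433 CPM in the iKO and 1569, 1371, 1627 and 996 CPM in the control samples (0.05 ± 0.12, edgeR adjusted p = 0.926). Il2ra was at 278, 264, 232 and 272 and 195, 219, 219 and 248 CPM (0.24 ± 0.14, adjusted p = 0.554), Ctla4 at 1184, 1264, 984 and 825 and 914, 691, 999.6 and 759 CPM (0.22 ± 0.17, adjusted p = 0.684). Tnfrsf4 was at 2111, 2326, 1259 and 1005 and 1365, 1174, 1206 and 788 CPM (0.36 ± 0.24, adjusted p = 0.636), and Tnfrsf18 at 1249, 1458, 1076 and 865 and 939, 832, 777 and 536 CPM (adjusted p = 0.379). These misses do not show equal levels. In the list of 28 effector or tumour Treg genes tested 0 were called, with a median of 0.28 (4 above and 3 below 0 at an unadjusted edgeR p under 0.05).

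Icos was the effector gene whose groups lay apart upward. It stood at 734, 796, 625 and 477 CPM in the iKO and at 355, 302, 417 and 269.8 CPM in the control samples, all iKO values above all control values (0.80 ± 0.18). The test missed the threshold with 7 profiles (edgeR adjusted p = 0.0628) and passed it with 8 (adjusted p = 0.0259). Pdcd1, the inhibitory receptor PD-1, was at 87.6, 124, 62.0 and 119.6 and 143, 175, 171 and 75.5 CPM (-0.79 ± 0.21, adjusted p = 0.103).

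The membrane protein genes Ms4a4b and Ms4a6b, found in T cells, rose. Ms4a4b was at 765, 685, 664 and 460.2 CPM in the iKO and at 227, 153, 72.1 and 101 CPM in the control samples, with no overlap (2.09 ± 0.31, edgeR adjusted p = 0.0164, and 0.000879 to 0.0809 with 1 profile left out). It missed the threshold without iKO 1 or control 2, and passed with at least 2 Foxp3 UMIs required (adjusted p = 0.00211). Ms4a6b (1.13 ± 0.21), Plac8 (1.27 ± 0.24) and Slfn1 (1.59 ± 0.33), a member of the interferon list, rose as well.

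Of 10 resting Treg genes tested 1 fell and 0 rose, with a median of -0.36. The median turned to 0.33 without the myeloid-rich Tregs and to 0.21 with at least 2 Foxp3 UMIs required. The IL-7 receptor Il7r was at 133, 119.6, 274 and 184 CPM in the iKO and at 367, 446, 383 and 194 CPM in the control samples (-1.27 ± 0.24, edgeR adjusted p = 0.0305). Control 4, which was outside the fit, lay within the iKO range, and the fall did not pass without iKO 1, iKO 2, control 2 or control 3. Bcl2 at -1.73 ± 0.39 did not pass (adjusted p = 0.0604). Nrn1 (neuritin) fell: it was at 19.6, 23.3, 17.7 and 27.6 CPM in the iKO and at 103, 153, 56.2 and 89.9 CPM in the control samples (-2.26 ± 0.32, adjusted p = 0.0138), and it missed the threshold without iKO 1 or control 2. Of 28 proliferation genes tested 0 were called and 0 had an unadjusted edgeR p under 0.05, with a median of 0.13. The TCR and activation list had 0 called of 21, with a median of -0.17 (2 above and 1 below 0 at an unadjusted edgeR p under 0.05).

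Transcripts that define other leukocytes made up many of the genes called lower. Sample values lay wholly below those of control 1 to 3 for 4.33% of all genes tested, and for 7 of the 9 tested macrophage markers. Of these 9, 5 were called lower and 0 higher (median -0.96), of 3 neutrophil markers 2 were lower (median -1.76), and of 5 dendritic cell markers 3 were lower (median -1.78). S100a9, an alarmin of neutrophils and monocytes, was at 48.4, 63.1, 53.1 and 50.6 CPM in the iKO and at 204, 242, 161 and 137 CPM in the control samples (-1.96 ± 0.18, edgeR adjusted p = 0.000715) and passed in each of the 7 fits that left out 1 profile. H2-Aa, a class II antigen presentation gene, was at 100.0, 303, 366 and 221 and 1727, 885, 457 and 291 CPM (-2.12 ± 0.42, adjusted p = 0.039); control 4 lay within the iKO range and the gene did not pass with 8 profiles (adjusted p = 0.056). Apoe (-2.04), Itgam (-2.24), Cfp (-2.24), Ptgs2 (-2.12), Cxcl2 (-2.01), Sirpa (-2.0), Pf4 (-1.90) and Ier3 (-1.85) fell too. Fcgr2b, an inhibitory Fc receptor gene that myeloid cells also express, was at 6.18, 7.48, 3.54 and 4.60 CPM in the iKO and at 61.6, 23.7, 26.2 and 18.0 CPM in the control samples (-2.60 ± 0.43, edgeR adjusted p = 0.0214). In Tregs it stood at 0.855 to 2.15% of its level in the Csf1r-positive cells in the iKO and at 2.95 to 13.6% in the control samples, and its fall was not called with at least 2 Foxp3 UMIs required.

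All 15 macrophage, 9 neutrophil and 13 dendritic cell markers were detected in the summed Treg profiles. Summed over each list, macrophage markers stood at 595 to 985 CPM in the iKO and 791 to 1488 CPM in the control Tregs, neutrophil markers at 168 to 299.9 and 356 to 1022 CPM, and dendritic cell markers at 1289 to 2239.5 and 2644 to 8253 CPM. Of the 518 Tregs 488 had at least 1 UMI of Lyz2, C1qa, C1qb, C1qc, S100a8 or S100a9. NK markers summed to 69.0 to 137 and 129 to 259 CPM with Klra4 and Klra8 at 0, B cell markers to 159 to 274 and 142 to 197 CPM, and melanoma markers to 4.60 to 20.8 and 1.87 to 8.47 CPM. Gamma-delta T cell markers reached at most 28.3 CPM, with Sox13 at 0. CD8 T cell markers summed to 1296 to 3373 and 2104 to 3640.5 CPM, with Cd8b1 at 0 by the rule. The part of these other cells in the genotype differences was not tested beyond the fit without myeloid-rich Tregs, which called 26 genes higher and 39 lower, 39 of the 62 in common. Its filter fell unevenly on the groups. It kept 68, 95, 40 and 44 of the 84, 121, 49 and 49 Tregs in iKO 1 to 4. In control 1 to 4 it kept 20, 24, 37 and 7 of 47, 55, 94 and 19. That fit thus compared most iKO Tregs with a minority of the control Tregs.

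**Figure D3:**
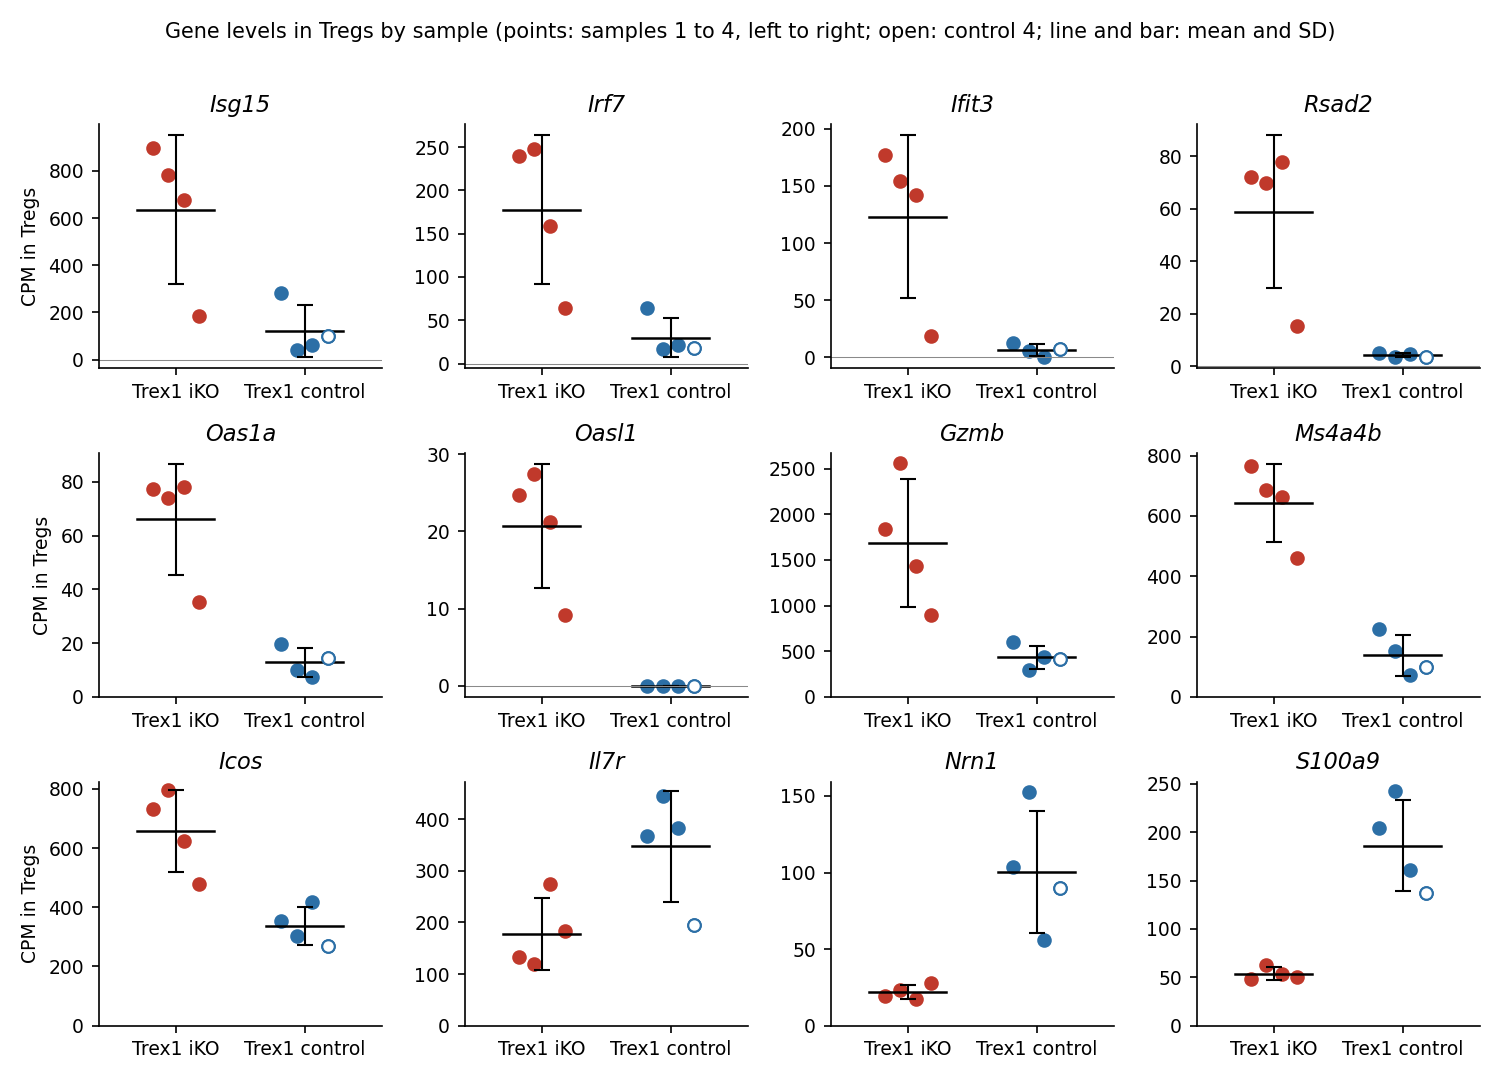
CPM of 12 genes in the Tregs of each sample (iKO red, control blue, control 4 open), with the mean and SD of the 4 samples of a group. Oasl1 is at 0 in all 4 control samples, iKO 4 is the lowest iKO sample for Isg15, Irf7, Ifit3, Rsad2, Oas1a, Oasl1, Gzmb, Ms4a4b and Icos, and S100a9 shows no overlap between groups.

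The test of whether the genotype difference itself differed between Tregs and other T cells found few genes. Against conventional CD4 T cells 0 of 6965 genes passed (0.0%; edgeR quasi-likelihood test of the class-by-genotype term), and 0 with DESeq2 size factors, while 394 had an unadjusted p under 0.05. Type I interferon genes had a median difference of -0.08 in log2 fold change, 22 above and 31 below 0. For Icos the difference was 0.42 (95% interval -0.03 to 0.87), for Gzmb -0.77 (-1.86 to 0.32) and for Ms4a4b 1.51 (edgeR adjusted p = 0.178).

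Against CD8 T cells 2 of 8958 genes passed (0.0223%), 1 in each direction (0.0112% each), and 540 had an unadjusted edgeR p under 0.05. Tnfrsf4 averaged 1675 CPM in iKO and 1133 CPM in control Tregs, but 95.2 CPM in iKO and 182 CPM in control CD8 T cells. Its difference in log2 fold change was 1.41 ± 0.18 (edgeR adjusted p = 0.0164, and 0.00924 to 0.166 with 1 sample left out). Cd209a, a dendritic cell lectin, had 0 UMIs in iKO Tregs and 27.0 CPM in control Tregs (adjusted p = 0.0495, and up to 0.378 with 1 sample left out). Tnfrsf4 did not pass without iKO 1, control 2 or control 4, and Cd209a passed in 1 of the 8 fits that left out a sample, that without iKO 4. Interferon genes had a median difference of 0.17, 35 of 53 above 0, with 0 called (4 above and 2 below 0 at an unadjusted edgeR p under 0.05).

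Shares of Tregs with a UMI were compared for 24 state genes after thinning each Treg to 2000 UMIs, since depth differs between samples, which left out 13 shallower Tregs (4 iKO and 9 control). None of the 24 passed after adjustment over them, which this test allows only where many of them lie wholly apart at once. The groups lay wholly apart for 6 genes, each at the smallest p that 4 against 4 allows (exact permutation p = 0.0286, adjusted p = 0.114). Gzmb was detected in 64.2, 84.2, 57.1 and 59.2% of Tregs in iKO 1 to 4 and in 42.9, 40.7, 41.8 and 31.6% in control 1 to 4. Icos was detected in 63.0, 70.8, 69.4 and 65.3% and in 33.3, 44.4, 52.7 and 31.6%. Its share in thinned Csf1r-positive cells of both groups together was 0.517%, and that of Gzmb was 4.90%. The Gzmb CPM of Csf1r-positive cells was higher in every iKO than in every control sample, which the pooled share does not show. Its part in the Gzmb shares of Tregs was not tested. In CPM, Gzmb in Tregs stood at 3220 to 6413% of the Csf1r-positive level in the iKO and 4885 to 8856% in the control samples. For Icos these were 29293 to 54376% and 8408 to 17036%.

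Il10, which Tregs secrete, was detected in 12 ± 3.41% of iKO and 4.97 ± 3.56% of control Tregs, and Ebi3 in 14.7 ± 3.21% and 8.08 ± 2.48% (SD, n = 4 samples each). In thinned Csf1r-positive cells of both groups together Ebi3 was detected in 5.54%, close to its share in control Tregs, and Il10 in 0.897%. Tcf7 was detected in 1.44 ± 1.79% and 7.37 ± 2.51%, and the myeloid gene Lyz2 in 25.3 ± 2.10% and 35.4 ± 5.99%. Thinned to 4000 UMIs, the groups overlapped for Il10 (iKO 3 12.8%, control 1 13.9%) and Tcf7 (iKO 3 6.38%, control 3 5.88%). They nearly met for Ebi3 (iKO 2 19.5%, control 1 19.4%) and for Lyz2 (iKO 4 46.9%, control 1 47.2%), and Icos and Gzmb stayed apart. At 4000 UMIs the groups also lay apart for Ikzf2 (95.9 to 98.7% in the iKO, 84.4 to 89.4% in the control samples). The same held for Ly6a (98.0 to 100.0% and 75.0 to 97.2%) and Ifit3 (8.16 to 21.5% and 0.0 to 6.25%). Without thinning Il10, Ebi3 and Tcf7 overlapped, with Ebi3 highest in control 4 (57.9%). With at least 2 Foxp3 UMIs required, Tcf7 was at 0 in 3 of 4 iKO and 3 of 4 control samples (exact permutation p = 1.0). Isg15 was detected in 50.6, 55.8, 44.9 and 28.6% of Tregs in the iKO and 28.6, 9.26, 12.1 and 15.8% in the control samples, where iKO 4 and control 1 met (exact permutation p = 0.0571). The shares of Mki67, Il2ra, Ccr8, Areg and Tbx21 overlapped between the groups. Without thinning 11 genes were at the smallest exact permutation p, among them Icos with 95.1 ± 1.39% and 73.9 ± 10.3% and Gzmb with 83.1 ± 6.26% and 61.3 ± 2.63%. With at least 2 Foxp3 UMIs required, Icos and Gzmb were the only 2 of the 24 at that p; Il10, Ebi3 and Lyz2 were at exact permutation p = 0.0857, 0.0571 and 0.229.

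**Figure D4:**
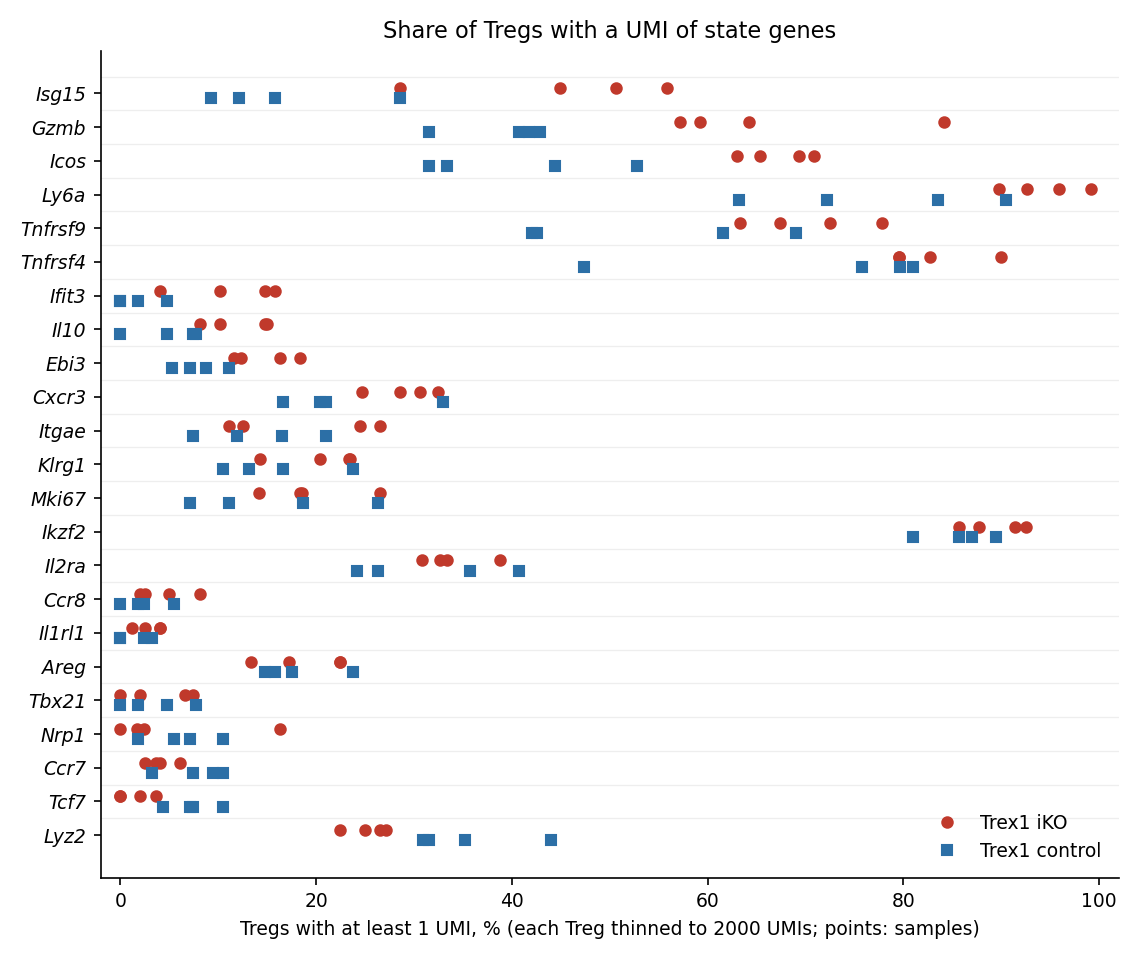
Share of Tregs with at least 1 UMI of the state genes, in percent, each Treg thinned to 2000 UMIs, 1 point per sample (iKO red circles, control blue squares), ordered by the difference in means. Gzmb and Icos show all 4 iKO samples to the right of all 4 control samples, and Lyz2 and Tcf7 show the reverse order.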

How the data were processed

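The data were gene-by-barcode matrices of UMI counts for 8 hashtagged samples, deposited as whole numbers. Per the submitters' processing notes they were made with Cell Ranger 7.1.0 on GRCm39, and the authors' counts were used as deposited. Of 23731 barcodes, 1241 with under 300 genes or over 10% mitochondrial UMIs were left out. No barcode was removed as a doublet. Counts were summed per sample and class, with at least 20 cells a profile, and fitted with edgeR 4.0.16 in R 4.3.3 (TMM, filterByExpr, quasi-likelihood, Benjamini-Hochberg over all genes tested, threshold 0.05). CPM is the summed count per 1000000 UMIs of the same profile. Fold changes and their SEs are on the log2 scale. DESeq2 1.42.0 and limma 3.58.1 gave alternatives, Scrublet in scanpy 1.11.5 doublet scores, and scipy 1.17.1 exact permutation tests. Total counts per Treg profile were 277985 to 1203839, so a gene at 10 CPM rests on few UMIs.

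Members, gene lists and tests were chosen with earlier results of these data known. The genes named were the 5 markers, the rule genes, Trex1, Atrip, listed genes, and in each comparison the 12 largest rises and 12 largest falls among called genes whose samples lay apart (on 1 side in all 8 samples, between classes) with a mean of at least 20 CPM in the higher group. The genotype comparison was planned with 8 profiles; control 4 fell under the minimum and its fit became an alternative added after seeing the data. On simulated counts with 200 genes changed 4-fold, the genotype fit recovered 94.5% of them over 6742 genes, and the CD8 interaction fit 76% over 8962 genes. These counts were drawn from the model fitted to the same data and refitted in the same way. The recovery therefore checks the code and does not show how many real 4-fold changes were missed. Replicates of a group differed beyond sampling noise. Results of 1 gene of the panel of 24 state genes, and of some other genes, are not reported here; they were kept in the counts and adjustments.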

Additional observations from a re-analysis of the deposited data

Results flagged for a closer look

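Each value below lay farther from the other 3 samples of its group than Dixon's 95% limit allows, or is a genotype difference that itself differed between cell classes. Chance alone passes the Dixon limit in about 1 in 20 groups, and 9 of 222 groups did.

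Treg share of kept leukocytes was 3.76% in iKO 3 and 1.99 to 2.17% in the other iKO samples. In iKO 4, Rsad2 in Tregs stood at 15.3 CPM (69.8 to 77.9 in the other iKO samples), Oas1a at 35.3 CPM (73.9 to 77.9), and Nrp1 at 58.3 CPM (12.4 to 19.5). In control 1, Irf7 stood at 64.1 CPM (16.9 to 21.5 in the other controls), Ly6a, a surface protein gene of the interferon list, at 2057 CPM (978 to 1143), and the decoy receptor gene Il1r2 at 399 CPM (96.6 to 133). In control 4, with 19 Tregs, Lyz2 stood at 299 CPM (178 to 192) and the lymph node homing receptor Ccr7 at 353 CPM (33.7 to 78.8).

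For Tnfrsf4 the log2 fold change between genotypes in Tregs minus that in CD8 T cells was 1.41. The mean was higher in iKO than in control Tregs (1675 and 1133 CPM), a difference that did not pass within Tregs, and lower in iKO than in control CD8 T cells (95.2 and 182 CPM). For Cd209a the same difference was -12.31, a fitted value that rests on 0 UMIs in iKO Tregs and depends on the prior count.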

How the results depend on the processing

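In the 62 calls between genotypes in Tregs, the number moved by over 1.5 times under several settings. It was 363 (201 higher, 162 lower) with no filter on low counts, 18 (4 and 14) with at least 2 Foxp3 UMIs, 40 (18 and 22) with a Cd4 UMI required and 143 (60 and 83) with each Treg thinned to 2000 UMIs. Added after seeing the data, admitting control 4 gave 121 (49 and 72), allowing 1 Cd8b1 UMI gave 131 (67 and 64) and limma-trend gave 34 (11 and 23). Leaving out 1 profile gave 5 to 140 calls: 5 without iKO 1 (0 higher), 25 without iKO 2, 28 without iKO 3, 114 without iKO 4, 140 without control 1, 5 without control 2 and 27 without control 3 (1 higher). DESeq2 called 86 (40 and 46). The cause of these changes was not tested, beyond there being fewer samples or cells. Only 1 of 49 interferon genes was called with at least 2 Foxp3 UMIs, with a list median of 1.25. Without the myeloid-rich Tregs the resting list median turned from -0.36 to 0.33, and with at least 2 Foxp3 UMIs to 0.21.

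With cells thinned to 2000 UMIs, 560 genes differed from conventional CD4 T cells and 895 from CD8 T cells. Plac8 then turned to 0.20 against conventional CD4 T cells. The class-by-genotype counts became 54 and 96 with no filter, and 0 to 7 and 0 to 3 with 1 sample left out, against conventional CD4 and CD8 T cells.

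The difference in the Treg share of T cells (-0.30 points) was 0.691 with thinned cells, 1.22 with at least 2 Foxp3 UMIs, 0.573 with 1 Cd8b1 UMI allowed, and -2.47 to 1.46 with 1 sample left out. That of kept cells (0.0565 points) was -0.00284 with a 5% mitochondrial limit and -0.503 to 0.379 with 1 sample left out. None passed the exact permutation test. The sample numbers did not pair the groups (correlations of same-numbered samples -0.0695 to 0.0972); the replicate block gave 68 calls (46 higher, 22 lower), 38 of them shared. Leaving out every Treg with a myeloid UMI could not be fitted.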
